A study of Mus musculus with 14 samples.

Results

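Markers of the inhibitory interneurons of the mouse cerebellum were followed through whole cerebellum and a Purkinje cell ribosome preparation in mice with Astn2 (wild type, WT) and without it (knockout, KO). The 9 genes (Tfap2b, Pax2, Sorcs3, Nxph1, Kit, Lypd6, Slc6a5, Gjd2 and Lgi2) were taken by name as markers of molecular layer interneurons and Golgi cells. All 9 were found by Entrez number among the 24100 genes of the count table. The mice were at postnatal day 21, and every animal, WT included, carried the Pcp2-L10a-EGFP transgene, in which the Purkinje cell promoter Pcp2 drives an EGFP-tagged ribosomal protein. Translating ribosome affinity purification (TRAP) captures these ribosomes on beads through their GFP tag, and their RNA is then read out. Input is a part of the cleared homogenate set aside before the purification, so it stands for whole cerebellum. There were 4 input WT libraries (1 female, 3 male), 3 input KO (2 female, 1 male), 3 TRAP WT (1 female, 2 male) and 4 TRAP KO (2 female, 2 male), and WT and KO mice were littermates.

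Molecular layer interneurons, the basket and stellate cells, release GABA onto Purkinje cell bodies and dendrites. Golgi cells lie in the granular layer and inhibit granule cells with GABA, and many of them with glycine as well. Both arise from progenitors of the cerebellar ventricular zone that pass through a stage marked by the transcription factor Pax2. Since the tagged ribosomes are made under a Purkinje cell promoter, these interneurons are neighbours of the tagged cells.

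Library totals ranged from 18799609 to 54229183 counts. Astn2 itself was at 87.8 to 145 CPM (counts scaled to the size of the library) in the WT libraries and at 0.739 to 2.10 CPM in the KO libraries, and no KO library overlapped a WT library. All 8 Purkinje cell genes of a list that held Pcp2 and Calb1 were higher in TRAP than in input in both genotypes, the median log2 fold change being 3.24 (WT) and 3.10 (KO). Over all genes, TRAP WT replicate 3 stood farthest from its group, with a median absolute log2 difference of 0.35 from the other libraries, and TRAP KO replicate 4 was the farthest in its group at 0.18. Input libraries differed from their groups by 0.064 to 0.12. The labels do not say whether replicates are separate animals, so p-values measure the spread between these libraries.

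The members fall into 3 kinds. Tfap2b (Entrez 21419, chr1:19208908-19238845) and Pax2 (Entrez 18504, chr19:44746601-44838269) encode transcription factors, of the AP-2 and paired box families. Kit (Entrez 16590, chr5:75574987-75656722) is the receptor tyrosine kinase for the Kit ligand. Sorcs3 (Entrez 66673, chr19:48206025-48805505) encodes a sortilin-family receptor, Nxph1 (Entrez 18231, chr6:8948614-9249619) the secreted neurexin ligand neurexophilin 1, and Lypd6 (Entrez 320343, chr2:50066400-50193569) a Ly6-domain protein anchored to the membrane. Slc6a5 (Entrez 104245, chr7:49906984-49963864) is the neuronal glycine transporter GlyT2, which marks glycinergic neurons. Gjd2 (Entrez 14617, chr2:114009601-114014378) encodes connexin 36, the main neuronal gap junction protein, and Lgi2 (Entrez 246316, chr5:52533517-52566306) a secreted leucine-rich repeat protein that binds ADAM-family receptors. Positions are those of RefSeq on GRCm38.p6, the assembly of the mm10 build that the submitters' processing notes name. Gjd2 and Lgi2 are on the minus strand and the others on the plus strand. An exon of the antisense gene A530058N18Rik overlaps a Gjd2 exon, and whether reads were counted by strand is not given in the sources used here, so reads of the 2 genes cannot be told apart in the Gjd2 counts. The other 8 members share no exon with another GENCODE M21 gene.

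AP-2 factors bind the palindrome GCCNNNGGC, and since Tfap2b is itself a member, the 250 bases before the starts that the promoter table lists for the members were searched for it (RefSeq, GRCm38.p6). For Tfap2b, Nxph1, Slc6a5 and Gjd2 these starts lie inside the gene span given above, and the bases before the outer end of the span were not searched. The Lypd6 start also lies inside its span, which begins at chr2:50066400. Its window, chr2:50066179-50066428, holds bases on both sides of that end. The palindrome was found before 3 of the 9 members, Kit, Lgi2 and the second of the 3 listed Pax2 starts. That Pax2 window, chr19:44755502-44755751, lies inside the Pax2 span given above. The window before the outer Pax2 start, chr19:44746351-44746600, does not hold the palindrome. Over all genes, 15.4% of 27025 had at least 1 window with the palindrome, as did 13.7% of 32851 windows. The Tfap2b window itself does not hold it. The Kit and Lgi2 windows are shown 5′ to 3′ on the gene's strand, the match in capitals. It begins 134 bases before the Kit start and 89 bases before the Lgi2 start. The match is a description of the sequence, since binding was not measured.
Kit, chr5:75574737-75574986, plus strand: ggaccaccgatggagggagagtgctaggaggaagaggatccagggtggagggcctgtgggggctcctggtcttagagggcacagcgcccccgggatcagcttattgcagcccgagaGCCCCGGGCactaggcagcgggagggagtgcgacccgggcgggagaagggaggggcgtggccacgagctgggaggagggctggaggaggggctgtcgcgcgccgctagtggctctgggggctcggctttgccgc
Lgi2, chr5:52566307-52566556, minus strand: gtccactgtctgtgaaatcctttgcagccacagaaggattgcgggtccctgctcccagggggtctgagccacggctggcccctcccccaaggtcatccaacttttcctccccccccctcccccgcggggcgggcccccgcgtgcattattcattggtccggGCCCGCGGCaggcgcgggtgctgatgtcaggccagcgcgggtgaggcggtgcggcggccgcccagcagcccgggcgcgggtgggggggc

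In whole cerebellum the markers differed widely in level. Divided by the length of the longest transcript, Kit was the highest in input WT, at 28.9 ± 1.14 CPM per kb (SD, n = 4). Tfap2b (14.2 ± 0.387 CPM per kb, SD, n = 4) and Lgi2 (14.1 ± 1.00 CPM per kb, SD, n = 4) came next and overlapped each other. Lypd6 followed at 9.87 ± 0.133 CPM per kb (SD, n = 4). Gjd2 (4.62 ± 0.396) and Nxph1 (4.35 ± 0.254) overlapped as well, both in CPM per kb (SD, n = 4). Below them lay Sorcs3 at 3.19 ± 0.144, Pax2 at 2.37 ± 0.0757 and Slc6a5 at 0.905 ± 0.166 CPM per kb (SD, n = 4), and none of these 3 overlapped a neighbour in that order. Input KO gave the same order of means except for Nxph1 (4.72 ± 0.324 CPM per kb, SD, n = 3) and Gjd2 (4.50 ± 0.444 CPM per kb, SD, n = 3), which changed places and overlapped. Tfap2b (15.3 ± 2.18) and Lgi2 (14.8 ± 1.94) overlapped there too, in CPM per kb (SD, n = 3).

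**Figure D1:**
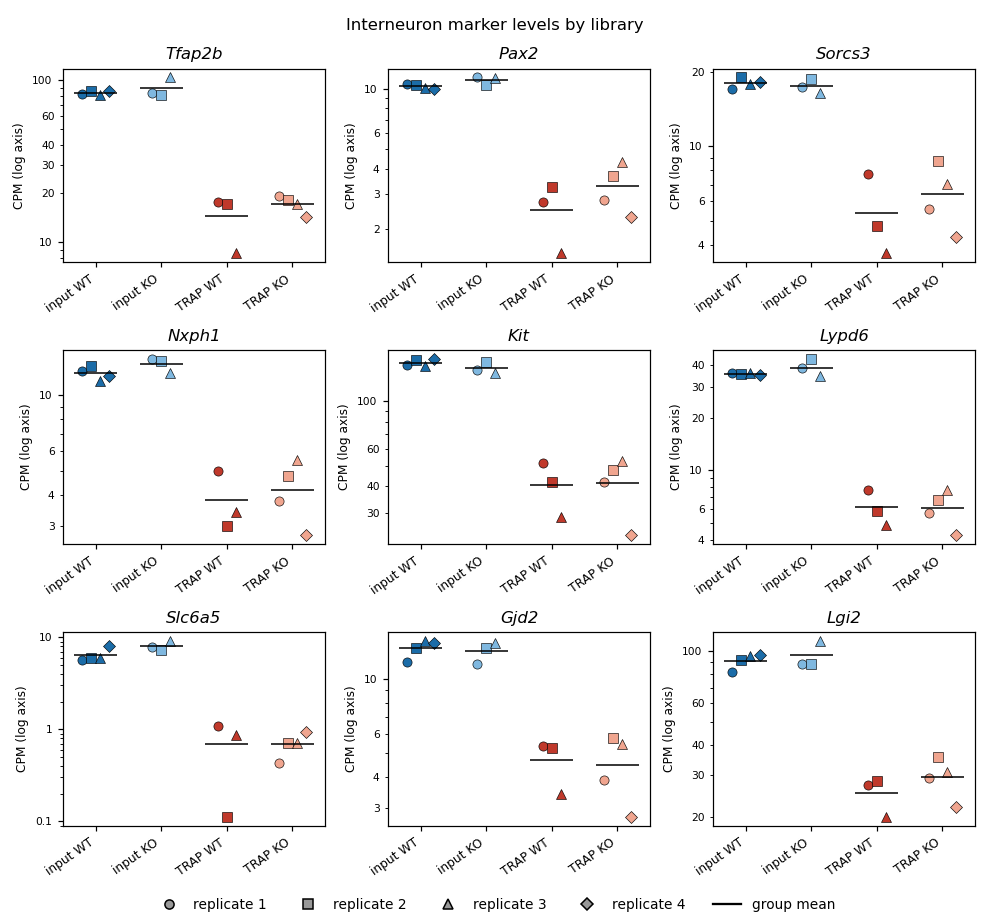
Level of each of the 9 interneuron markers in every library, in CPM with TMM factors on a log axis, for input WT (n = 4), input KO (n = 3), TRAP WT (n = 3) and TRAP KO (n = 4); point shape gives the replicate number and the line the group mean. For every gene the TRAP points lie below the input points, and within TRAP the lowest points are mostly TRAP WT replicate 3 and TRAP KO replicate 4.

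The first comparison asked how the level of the interneuron markers in the TRAP libraries compared with their level in input. All 9 markers fell in TRAP relative to input, in WT and in KO, and for each of them every TRAP library lay below every input library of its genotype. The median log2 fold change of the 9 was -1.93 in WT and -1.75 in KO, against -0.095 and -0.13 over all 16042 genes tested. At the 0.05 threshold of edgeR's quasi-likelihood test (adjusted over all genes), 38.7% of all genes were called lower in WT and 40.1% in KO, 36.8% and 35.8% higher, and 75.5% and 76% in either direction. Scaled by library totals alone, the split of all genes moved from 5900 higher and 6210 lower to 3138 and 9800 in WT, and from 5747 and 6440 to 3133 and 9669 in KO, and all 9 markers were still called lower. All TRAP libraries lay below all input libraries for 38.3% of genes in WT and 40.8% in KO.

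Kit, the receptor, was at 147, 155, 146 and 157 CPM in input WT replicates 1 to 4 and at 51.6, 41.8 and 28.9 CPM in TRAP WT replicates 1 to 3. In KO it was at 140, 152 and 135 CPM in input and at 42.1, 47.8, 52.4 and 23.7 CPM in TRAP. TRAP held 26.2% of the input level in WT, with a 95% interval of 18.6% to 36.9% (log2 fold change -1.93 ± 0.23 SE, adjusted p 3.77e-06 in edgeR's test), and 29.8% in KO (log2 fold change -1.75 ± 0.22 SE; adjusted p 5.67e-06 in edgeR's test). The Kit ligand gene Kitl moved the opposite way. It was at 116 to 153 CPM in input WT and 659 to 848 CPM in TRAP WT, and at 111 to 130 CPM in input KO and 558 to 794 CPM in TRAP KO. Its log2 fold change was 2.50 ± 0.14 (SE) in WT and 2.40 ± 0.15 (SE) in KO, with adjusted p of 2.96e-09 and 1.07e-08 in edgeR's test. Receptor RNA was low and ligand RNA high in the same TRAP libraries. Per kb of transcript, Kit stood at 28.9 and Kitl at 23.0 CPM per kb in input WT, and at 7.78 and 129 CPM per kb in TRAP WT.

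Among the transcription factors, Tfap2b was at 81.8, 85.6, 81.2 and 85.2 CPM in input WT and 17.6, 17.2 and 8.57 CPM in TRAP WT. In KO it was at 83.8, 80.5 and 104 CPM in input and 19.4, 18.3, 17.2 and 14.3 CPM in TRAP. TRAP WT replicate 3 was the lowest of the 7 TRAP libraries. The log2 fold change was -2.55 ± 0.22 (SE) in WT and -2.36 ± 0.20 (SE) in KO, with adjusted p of 1.30e-07 and 1.29e-07 in edgeR's test. Pax2 was at 10.6, 10.5, 10.1 and 9.97 CPM in input WT and 2.72, 3.25 and 1.52 CPM in TRAP WT, and at 11.4, 10.4 and 11.3 CPM in input KO and 2.81, 3.68, 4.33 and 2.29 CPM in TRAP KO. The same pair of libraries, TRAP WT replicate 3 and TRAP KO replicate 4, was lowest in its group. TRAP held 23.8% of the input level of Pax2 in WT and 29.7% in KO.

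The RNA of Lypd6, Sorcs3 and Nxph1, which encode cell surface or secreted proteins, fell to different degrees. Lypd6 was at 36.0, 35.5, 36.2 and 35.2 CPM in input WT and 7.69, 5.88 and 4.86 CPM in TRAP WT, and at 38.3, 43.2 and 34.4 CPM in input KO and 5.69, 6.80, 7.72 and 4.27 CPM in TRAP KO. The log2 fold changes of Lypd6 were -2.58 ± 0.18 (SE) in WT and -2.63 ± 0.17 (SE) in KO, with adjusted p of 2.49e-08 and 1.24e-08 in edgeR's test. Sorcs3 was at 17.0 to 19.0 CPM in input WT and 7.75, 4.76 and 3.71 CPM in TRAP WT, and at 16.4 to 18.7 CPM in input KO and 5.57, 8.72, 7.07 and 4.31 CPM in TRAP KO. TRAP libraries spread more than input libraries here, and TRAP held 28.5% of the input level in WT and 37.6% in KO. Nxph1 was at 11.4 to 13.1 CPM in input WT and 4.97, 3.02 and 3.42 CPM in TRAP WT, and at 12.2 to 13.9 CPM in input KO and 3.78, 4.76, 5.50 and 2.77 CPM in TRAP KO, so that TRAP held 30.3% in WT and 32.2% in KO.

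Slc6a5, the glycine transporter, had the lowest log2 fold changes of the 9. It was at 5.61, 5.92, 5.91 and 8.14 CPM in input WT and 1.09, 0.112 and 0.865 CPM in TRAP WT, and at 7.83, 7.22 and 9.12 CPM in input KO and 0.429, 0.701, 0.702 and 0.924 CPM in TRAP KO. These TRAP levels rest on 2 to 21 counts a library, the 2 counts being those of TRAP WT replicate 2. Unlike the other markers, it was not lowest in TRAP KO replicate 4, which held its highest TRAP KO level. The log2 fold change was -3.20 ± 0.40 (SE) in WT and -3.57 ± 0.36 (SE) in KO, with adjusted p of 6.81e-06 and 8.42e-07 in edgeR's test, which places it in the lowest 2.16% and 0.717% of the genes tested. Gjd2 had the smallest fall in WT, from 11.7, 13.3, 14.2 and 14 CPM in input to 5.37, 5.26 and 3.42 CPM in TRAP. In KO it went from 11.5, 13.3 and 14 CPM in input to 3.90, 5.78, 5.44 and 2.77 CPM in TRAP. Its log2 fold change was -1.52 ± 0.24 (SE) in WT and -1.53 ± 0.22 (SE) in KO, with adjusted p of 4.95e-05 and 2.65e-05 in edgeR's test. Lgi2 was at 81.8 to 96.0 CPM in input WT and 27.3, 28.3 and 20.0 CPM in TRAP WT, and at 88.4 to 110 CPM in input KO and 29.2, 35.7, 30.9 and 21.9 CPM in TRAP KO. TRAP held 27.6% of its input level in WT and 30.8% in KO.

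**Figure D2:**
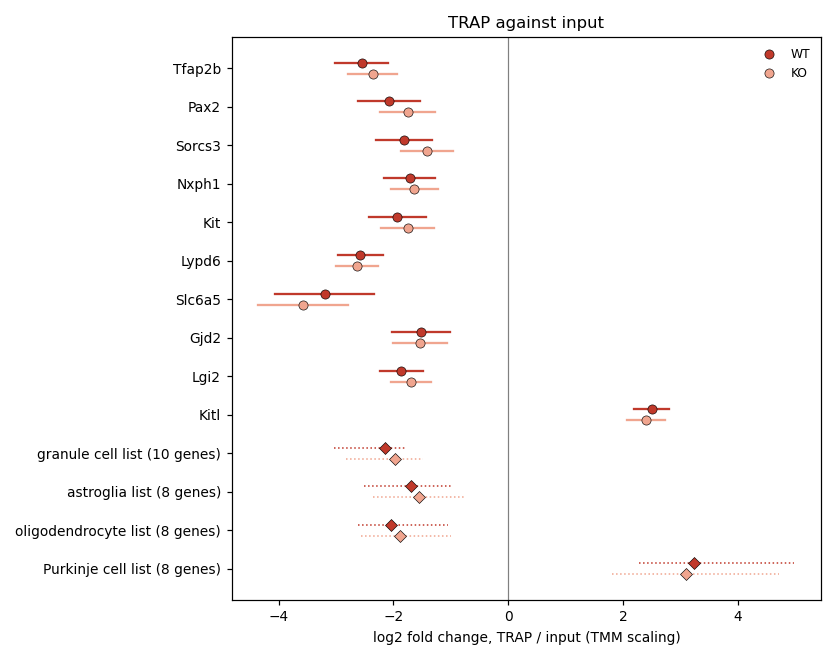
Log2 fold change of TRAP against input in WT (dark) and KO (light) for the 9 markers and Kitl, as points with 95% intervals from the fit; diamonds are medians of 4 cell type lists and dotted lines their lowest to highest genes. The 9 markers lie between -3.57 and -1.41, Kitl at 2.50 and 2.40, and the granule cell, astroglia and oligodendrocyte lists overlap the markers.

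Genes of other cell types fell in TRAP as well. All 10 granule cell genes, Gabra6 and Neurod1 among them, were lower in TRAP, the median log2 fold change being -2.15 (WT) and -1.98 (KO). All 8 astroglia genes were lower, with medians of -1.69 and -1.56, and all 8 oligodendrocyte genes, with medians of -2.04 and -1.88. Of 5 genes of unipolar brush cells and cerebellar nuclei, 4 were lower in each genotype, with medians of -1.70 and -1.62. Summed over the 9 markers, the TRAP WT libraries held 29.9%, 26.0% and 17.9% of the mean input WT level. The TRAP KO libraries held 26.3%, 30.8%, 30.6% and 18.0% of the mean input KO level. The granule cell list held 24.2%, 20.3% and 18.7% in TRAP WT and 18.9%, 27.3%, 26.2% and 13.0% in TRAP KO, in the same order of libraries. TRAP WT replicate 3 and TRAP KO replicate 4 were thus lowest in their groups for both sums. The astroglia sum was also lowest in these 2 libraries within their groups, at 25.1% and 21.2%, as was the oligodendrocyte sum, at 15.8% and 17.0%. The part that the other cell types' RNA has in the level of the markers was not tested.

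**Figure D3:**
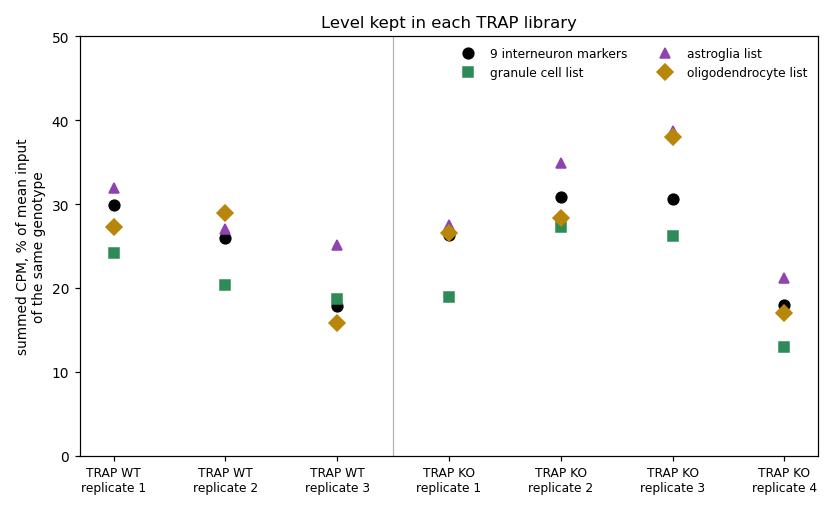
Summed CPM in each TRAP library as a percentage of the mean input sum of the same genotype, for the 9 interneuron markers and the granule cell, astroglia and oligodendrocyte lists. The marker sum ranges from 17.9% to 30.8%, and TRAP WT replicate 3 and TRAP KO replicate 4 are the lowest of their groups for all 4 sums.

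To compare the markers with granule cell RNA whatever the overall scaling, libraries were rescaled so that the granule cell list had the same geometric mean in each. On that scale the median of all genes was 2.19 in WT and 2.05 in KO. Of all genes, 78.6% were called higher in WT and 77.8% in KO, 1.43% and 1.27% lower, and 80% and 79.1% in either direction. The 9 markers had medians of 0.32 in WT and 0.36 in KO. In WT 2 of the 9 were called higher than the granule list and 0 lower, and in KO 2 were called higher and 2 lower.

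Gjd2 was the marker called higher in both genotypes, with a log2 fold change relative to the granule list of 0.74 ± 0.22 (SE) in WT and 0.57 ± 0.22 (SE) in KO and adjusted p of 0.00396 and 0.0219 in edgeR's test. Nxph1 was called in WT (0.55 ± 0.23 SE, adjusted p 0.0327 in edgeR's test) and had 0.48 ± 0.23 (SE) in KO, where the adjusted p was 0.0625. Sorcs3 was called in KO (0.71 ± 0.22 SE, adjusted p 0.00612 in edgeR's test) and had 0.45 ± 0.22 (SE) in WT, with an adjusted p of 0.0681. Slc6a5 lay below the granule list in KO (-1.40 ± 0.41 SE, adjusted p 0.00360 in edgeR's test), and its value in WT was -0.90 ± 0.44 (SE) with an adjusted p of 0.0665, which passed in 6 of 19 alternatives. Lypd6 was lower in KO (-0.50 ± 0.22 SE, adjusted p 0.0370 in edgeR's test), with -0.31 ± 0.22 (SE) and an adjusted p of 0.197 in WT. Kit (0.32 and 0.36), Lgi2 (0.41 and 0.45), Pax2 (0.18 and 0.36) and Tfap2b (-0.31 and -0.18) passed in neither genotype. Within the granule list itself Etv1 was called lower in both genotypes (-0.78 and -0.63) and Gabrd higher in KO (0.61), so single genes of 1 cell type also differed on this scale. Without TRAP WT replicate 3 and TRAP KO replicate 4, 6 markers were called in WT and 7 in KO. The calls of Gjd2 in WT and of Sorcs3 and Slc6a5 in KO held in all 19 alternatives run, while those of Nxph1 in WT and Lypd6 in KO were lost in 8 and 11 of 19 and that of Gjd2 in KO in 4. Leaving out any 1 of the input WT libraries left 1 marker called in WT, leaving out TRAP KO replicate 4 gave 5 in WT, and leaving out any 1 of the input KO libraries left 2 in KO.

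**Figure D4:**
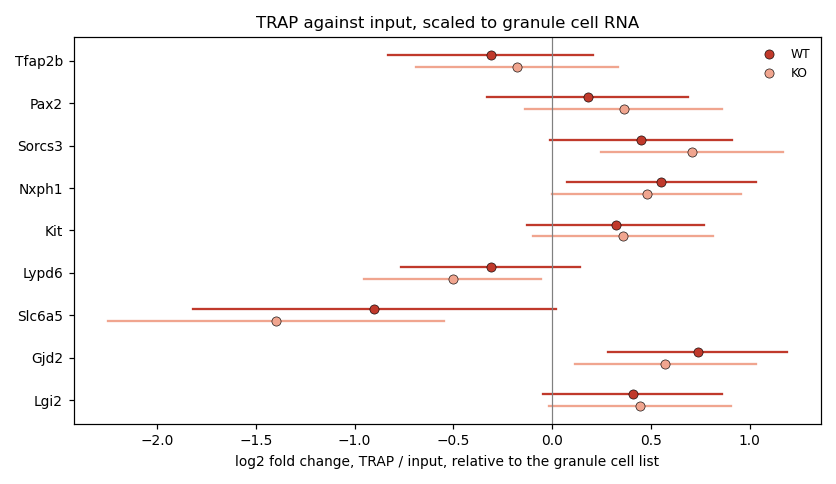
Log2 fold change of TRAP against input for the 9 markers after libraries were scaled to equal granule cell RNA, in WT (dark) and KO (light), as points with 95% intervals from the fit. Slc6a5 lies lowest, at -0.90 and -1.40, and Gjd2 and Sorcs3 lie highest, up to 0.74 in WT and 0.71 in KO.

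Other genes known from cerebellar inhibitory neurons did not all fall. Of 14 further interneuron genes tested, 8 fell in both genotypes, 5 rose in both and 1 passed in neither, the median log2 fold change being -1.11 (WT) and -1.19 (KO). Among those that fell were Cdh22, a cadherin (-1.71 in WT, -1.44 in KO), Ptprk, a receptor phosphatase (-2.17, -2.21), the glutamate receptor gene Grm2 (-1.52, -1.6) and the neuronal nitric oxide synthase gene Nos1 (-1.39, -1.51). Among those that rose were the homeobox genes Lhx5 (3.05, 3.10) and Lhx1 (1.73, 1.55), both also known from Purkinje cells, Klhl1 (2.24, 2.13) and the kinase gene Prkcd (0.40, 1.02). The 6 genes of inhibitory transmission were split too. Gad1, which makes GABA, rose (1.57 in WT, 1.47 in KO), as did the vesicular transporter Slc32a1 (1.51, 1.15) and Pvalb (4.09, 4.08). Gad2 rose in WT (0.56) and had 0.32 in KO (adjusted p 0.063 in edgeR's test). The glycine transporter Slc6a9 fell (-1.64, -1.38). Whether the RNA of the genes that rose came from interneurons or from Purkinje cells was not tested.

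Of 13 ligands and binding partners of the member proteins, 4 rose in both genotypes, while 8 fell in WT and 7 in KO. Those that rose were Kitl, the LGI-binding Adam23 (1.87 in WT, 1.6 in KO), the glycine receptor subunit Glrb (0.88, 0.80) and Pick1, a scaffold protein (1.61, 1.55). Nrxn2 (-1.18, -0.90) and Nrxn3 (-1.10, -0.89), which encode neurexins, fell. Adam11 (-2.00, -1.71) and Adam22 (-1.0, -0.99) fell as well, so the ADAM genes went in different directions.

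The non-member genes whose profile over the 14 libraries came closest to the mean profile of the 9 markers were Plch2, Pcyt1b, Cblb, Fgf13 and Kank2. Likeness was the root mean square difference of centred log2(CPM + 1), which was 0.072 for Plch2 and 0.092 for Kank2. Among the markers it ranged from 0.12 for Lgi2 and 0.15 for Kit to 0.37 for Slc6a5. The 5 genes were chosen for their closeness, so their likeness and their fold changes are a description. Their log2 fold changes of TRAP against input in WT were -1.99, -2.03, -2.06, -1.98 and -1.90.

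The next comparison asked whether loss of Astn2 changed interneuron RNA in whole cerebellum. None of the 9 markers passed in input in edgeR's test, where 3 of 15997 genes did (0.0188% in either direction, 0.00625% higher and 0.0125% lower), nor in the DESeq2 Wald test, which called 108 genes higher and 182 lower. In edgeR's test 2 of the 9 had an unadjusted p under 0.05, as did 2211 of the 15997 genes. KO and WT libraries overlapped for all 9, and did not overlap for 11.4% of all genes tested. The median log2 fold change of the 9 was 0.042, against -0.00093 for all genes. Kit in KO was at 91.5% of WT, with a 95% interval from the fit of 80.9% to 103% (adjusted p 0.498 in edgeR's test). Intervals of similar width were found for Lypd6 (102%, 89.6% to 116%), Gjd2 (101%, 89.2% to 115%), Nxph1 (103%, 90.2% to 117%), Pax2 (105%, 92.4% to 118%), Sorcs3 (94.8%, 83.1% to 108%) and Tfap2b (110%, 99.0% to 123%). All 7 intervals span 100%, which leaves room for changes of the sizes given and does not show that the genotypes are alike. In bulk RNA of whole cerebellum, a change in the number of cells and a change in RNA per cell cannot be told apart.

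Slc6a5 and Lgi2 were the 2 with an unadjusted p under 0.05. Slc6a5 was at 133% of WT in input KO (interval 107% to 167%, log2 fold change 0.41 ± 0.14 SE, unadjusted p 0.0177, adjusted p 0.273 in edgeR's test). Its KO libraries, at 7.22 to 9.12 CPM, lay above 3 of the 4 WT libraries and on both sides of input WT replicate 4, at 8.14 CPM. Slc6a5 was highest in input KO replicate 3 and, in WT, in replicate 4. Of the 5 genes of the unipolar brush cell and cerebellar nucleus list, Eomes was also highest there, at 54.2 CPM in input KO replicate 3 and 47.8 CPM in input WT replicate 4, against 17.5 to 34.7 CPM in the other 5 input libraries. The other genes of the list did not all follow it. Lmx1a was at 0.851 CPM in input WT replicate 4, against 0.67 to 1.6 CPM in the other WT inputs, and at 1.29 CPM in input KO replicate 3, the lowest of that group. Tbr1 was lowest of the WT inputs in replicate 4, at 1.15 CPM, and highest of the KO inputs in replicate 3, at 1.32 CPM. Calb2 was at 703 CPM in input WT replicate 4, below the 770 CPM of replicate 3, and at 764 CPM in input KO replicate 3, the highest of that group. Slc17a6 was highest of the WT inputs in replicate 4, at 13 CPM, and lowest of the KO inputs in replicate 3, at 9.96 CPM. The summed level, most of it Calb2, was 664 to 818 CPM in input WT and 754 to 831 CPM in input KO. The part of these genes' cells in the Slc6a5 values was not tested. Over 8 brainstem neuron genes the summed level was 2.26 to 3.02 CPM in input and 5.24 to 6.91 CPM in TRAP, and Hoxa3 was at 0 counts in 5 of the 7 input libraries. Lgi2 was at 111% of WT (interval 101% to 121%, adjusted p 0.305 in edgeR's test), and without the sex covariate its log2 fold change fell to 0.044 from 0.15.

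**Figure D5:**
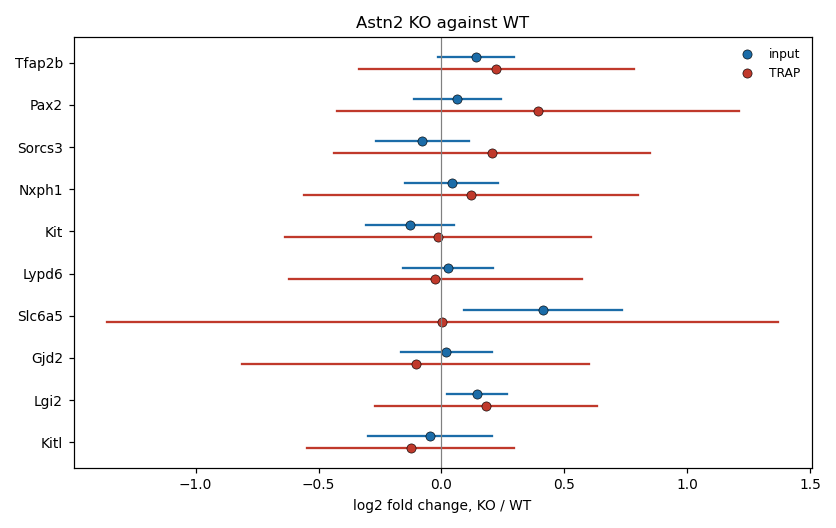
Log2 fold change of KO against WT for the 9 markers and Kitl in input (blue, 3 KO and 4 WT libraries) and in TRAP (red, 4 KO and 3 WT libraries), as points with 95% intervals from the fit. Input intervals of Slc6a5 and Lgi2 lie above 0 before adjustment over all genes, and for every gene shown the TRAP interval is wider than the input interval.

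In TRAP, none of the 9 markers passed between genotypes in edgeR's test, where 1 of 14145 genes did (0.00707%), and none had an unadjusted p under 0.05, which 210 of the 14145 genes had. The groups overlapped for all 9, against 4.56% of all genes with no overlap. The median log2 fold change was 0.12, against 0.0041 for all genes. The precision was lower than in input: Kit was at 99.1% of WT with an interval of 64.3% to 153%, and Slc6a5, with its few counts, at 100% with an interval of 38.9% to 258%. The widest difference of means was that of Pax2, at 131% of WT (74.5% to 231%). The ligand gene Kitl was at 91.7% of WT in TRAP (68.4% to 123%) and 96.9% in input (81.4% to 115%), with adjusted p of 1.00 and 0.888 in edgeR's test.

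Whether the fall from input to TRAP differed between genotypes was tested by the interaction, which was called for 0 of 16042 genes (0%) in edgeR's test and for none of the 9 markers, with 458 genes but no marker at an unadjusted p under 0.05; the DESeq2 Wald test called 1 gene, not a marker. Interaction values ran from -0.37 ± 0.55 (SE) for Slc6a5 to 0.40 ± 0.31 (SE) for Sorcs3 on the log2 scale, each with an adjusted p of 0.999. The differences between WT and KO in how far a marker fell, such as 28.5% against 37.6% of input kept for Sorcs3, did not pass this test.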

How the data were processed

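The deposited values are raw counts per Entrez gene in 14 libraries, with no normalization; the submitters' processing notes name Salmon 0.8.2 and the build mm10 without a role, and the counting rule, annotation and strand setting are not given in the sources used here. Symbols came from RefSeq (GRCm38.p6), which matched 24045 of 24100 rows.

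Levels are CPM with TMM factors over all libraries. The tests were edgeR's quasi-likelihood test (edgeR 4.0.16, R 4.3.3), two-sided, on genes kept by filterByExpr, with Benjamini-Hochberg adjustment over all genes and a threshold of 0.05: TRAP against input and the interaction in 14 libraries with group means and sex, and genotype within a fraction with sex. All 9 members passed the filter in every comparison. Standard errors are the absolute log2 fold change over the root of F, and 95% intervals use the fit's degrees of freedom. In a further fit libraries were scaled to the geometric mean of 10 granule cell genes. Lengths are of the longest GENCODE M21 transcript. The scripts for TRAP against input in WT and for KO against WT in each fraction were tested on simulated counts with TMM factors. TRAP against input in KO, the interaction and the granule-scaled fit were not tested in this way. Depth was 18799609 to 54229183 counts, and 3 counts correspond to 0.0553 to 0.160 CPM, for counting error only. No pair of libraries within a group agreed within sampling noise (chi-square per degree of freedom 8.63 to 267).

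Members and lists were chosen with earlier results of these data known. All members and Kitl are named in each comparison, other list genes where they passed or to complete a list, and the 5 genes of closest profile. Alternatives were other scalings, no filter, the DESeq2 1.42.0 Wald test, limma 3.58.1 quality weights, no sex covariate, a replicate block, and each library left out. The fit without TRAP WT replicate 3 and TRAP KO replicate 4 was chosen after seeing the data. Eomes, Etv1 and Gabrd were named after their values were seen. Some genes of the lists are not reported here by name.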

Additional observations from a re-analysis of the deposited data

Results flagged for a closer look

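Slc6a5 was far higher in input WT replicate 4 than in the remaining 3 WT inputs: log2(CPM + 1) reached 3.19 there and lay between 2.73 and 2.79 elsewhere. The gap made up 0.862 of the whole range of the group, above Dixon's 95% critical value for 4 samples. It was 1 of 20 values tested in this way, about the rate of 1 in 20 that chance gives. Of the unipolar brush cell and cerebellar nucleus genes, Eomes and Slc17a6 were also highest of the input WT libraries there, Tbr1 was lowest, at 1.15 CPM, and Lmx1a (0.851 CPM) and Calb2 (703 CPM) lay within the range of the others. Their part in the Slc6a5 value was not tested. Without this library the log2 fold change of Slc6a5 in input KO was 0.51 (adjusted p 0.194 in edgeR's test), within the range of 0.154 to 1 over the alternatives.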

How the results depend on the processing

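The fall of the 9 markers in TRAP kept its direction and its call in all 23 alternatives in each genotype, with log2 fold changes of -4.01 to -1.26 in WT and -4.28 to -1.19 in KO. With library totals the median of all genes moved to -0.91 in WT and -0.85 in KO, and 3138 genes were called higher and 9800 lower in WT (3133 and 9669 in KO), against 5900 and 6210 (5747 and 6440) with TMM. Relative to the granule list, the 4 markers called in KO became 2 with no filter and 7 without TRAP WT replicate 3 and TRAP KO replicate 4, and the 2 called in WT became 6 without both. Leaving out 1 library gave 1 to 5 in WT and 2 to 5 in KO. Over all genes, 230 called lower in WT and 203 in KO became 356 and 405 without both libraries.

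No marker was called between genotypes or for the interaction in any alternative, and the sign of values near 0 changed. In input, Gjd2 was -0.066 without sex, -0.00615 with quality weights, -0.032 with the replicate block and -0.0521 in 1 fit of 14 libraries. Lypd6 was -0.00038 with quality weights, and granule scaling gave Sorcs3 0.0024 and Kitl 0.034. In TRAP, library totals gave Kit 0.045 and Lypd6 0.029, no sex covariate gave Kit 0.031 and Lypd6 0.0018, and quality weights gave Slc6a5 -0.30. The replicate block gave Kit 0.25, Lypd6 0.15 and Gjd2 0.11 in TRAP, and Kit was 0.0011 in 1 fit of 14 libraries and 0.025 without both outlying libraries. For the interaction, library totals gave Lypd6 0.047 and Gjd2 0.093, quality weights gave Tfap2b -0.041 and Nxph1 -0.049, and the replicate block gave Lypd6 0.047 and Gjd2 0.13. The cause was not tested.

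Leaving out each library in turn gave ranges that span 0. In input these were Sorcs3 -0.21 to 0.082, Nxph1 -0.044 to 0.14, Lypd6 -0.11 to 0.18, Gjd2 -0.034 to 0.085 and Kitl -0.10 to 0.026. In TRAP they were Tfap2b -0.0073 to 0.47, Sorcs3 -0.023 to 0.45, Nxph1 -0.20 to 0.37, Kit -0.36 to 0.19, Lypd6 -0.29 to 0.18, Slc6a5 -0.49 to 0.70, Gjd2 -0.37 to 0.092 and Kitl -0.26 to 0.011. For the interaction they were Tfap2b -0.073 to 0.43, Nxph1 -0.037 to 0.30, Lypd6 -0.16 to 0.12, Slc6a5 -0.86 to 0.13, Gjd2 -0.19 to 0.20 and Kitl -0.17 to 0.049. Pax2 relative to the granule list in WT ranged from -0.056 to 0.36.

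Over all genes, the calls in input (1 higher, 2 lower) became 5 and 18 with no filter, 108 and 182 in the DESeq2 Wald test, and 73 and 110 without input KO replicate 2. Lower calls there were 4 with DESeq2 size factors, 7 with quality weights, and 1 without sex or in 1 fit of 14 libraries, and the replicate block gave 0 higher and 1 lower. In TRAP (0 higher, 1 lower) the DESeq2 Wald test gave 1 and 2, quality weights 1 and 3, granule scaling 2 and 8, and 1 fit of 14 libraries 1 higher. With the replicate block the 9 markers were called in TRAP against input in both genotypes and none between genotypes. Relative to the granule list in WT, the block lost Nxph1 (0.53, adjusted p 0.0638 in edgeR's test) and gained Slc6a5 (-0.92, adjusted p 0.0351 in edgeR's test). The labels do not say that a number marks 1 animal, and same-numbered input and TRAP libraries did not all deviate together (correlations of 0.29, 0.24 and 0.099 in WT and 0.23, 0.22 and -0.12 in KO), so the numbers were not taken as pairs. Low counts limit Slc6a5 in TRAP.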
